A study of Mus musculus with 18 samples.

Results

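The chemokine system of murine bone marrow (BM) was examined as 44 genes of the 20275 genes in the count matrix. A gene was included when its symbol was Ccl or Cxcl followed by a digit, or Ccr or Cxcr followed by a number, and Cxcl12 and Cxcr4 were set aside by the same rule. This gave 19 CC ligands, 11 CXC ligands, 10 CC receptors and 4 CXC receptors. All 44 genes passed the filter on low counts, together with 19323 genes in all.

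The study asked how hematopoietic progenitors (HPs) and the stroma of the BM change between fetal life, birth and adulthood. Single-cell libraries that tag the 3' end of each transcript were made from Lineage-Kit+ BM cells (HPs) and from CD45-Ter119- BM cells (stroma) of C57B6/J mice with no allele or agent named in the labels. The stages were E16.5, E18.5, P0 and adult, the last with no age in the labels. By the study's methods, adult cells came from tibias, femurs, pelvic bones and spines, with lysis of red cells. Fetal cells came from the skeleton without the head, and no lysis was done. In comparisons with the adult, stage cannot be told apart from these differences in bones and preparation. E16.5 HPs were sampled with 2 libraries and every other combination with 1, for a total of 5 HP and 4 stromal libraries, each from cells pooled over several animals. Levels are given in CPM, the unique molecular identifiers (UMIs) of a gene per 1000000 UMIs, after summing all cells of a library or cluster. A UMI marks 1 captured 3' end, so levels are not divided by gene length, and a 95% Poisson interval around a level covers counting error only. At the level of a whole library, a smaller number of cells of a type and less RNA in each of them cannot be told apart. Nothing in the labels says that libraries of a stage came from separate animals, so p-values measure only the spread between these libraries.

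The HP libraries held 560 to 6208 cells and 13974733 to 127489333 UMIs, and the stromal libraries held 6267 to 14084 cells and 91868751 to 194892476 UMIs. Ptprc, the pan-leukocyte antigen CD45, lay between 79.3 and 163 CPM in HPs and at or under 0.0564 CPM in stroma, whereas the bone collagen gene Col1a1 was at or under 1.74 CPM in HPs and between 1839 and 6383 CPM in stroma. The study's methods name a removal of contaminating blood cells after sequencing, and the stromal libraries used here held fewer cells than the study gives. Where genes of leukocytes are nearly absent from stroma, the sort and this removal cannot be told apart. Cell barcodes were shared between libraries: 330 of the 560 cells (58.9%) of the first E16.5 HP library carried a barcode that also occurred in adult HPs, and 375 barcodes were shared by E18.5 and adult HPs, whereas E16.5 HP libraries 1 and 2 shared 1 barcode. Leaving out the shallower cell of each such pair removed 644 adult HPs and 1 to 219 cells from each other HP library. It left each chemokine gene with at least 20 UMIs at 0.898 to 1.00 times its level outside adult HPs and at no less than 0.747 times its level in adult HPs. The E16.5 HP libraries also differed in makeup. The Mono/Mast cluster took 28.8% of the cells of library 1 and 2.99% of library 2, and T cell clusters took 3.21% and 45.1%. Of 28 chemokine genes with at least 50 UMIs over both, 14 were more than 3-fold higher in library 1. The count fell to 4 of 23 when the T cell and Mono/Mast clusters were left out of both libraries. Within Mono/Mast alone 3 of 16 were, up to 7.86-fold (Ccr2), with a median ratio of 2.20.

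Chemokines are small secreted proteins that direct the migration of leukocytes by binding G protein-coupled receptors. They are named CC or CXC from the spacing of their first cysteines, and most ligands bind several receptors and most receptors several ligands. In BM, chemokines guide the entry, retention and release of progenitors, monocytes and neutrophils, and the inflammatory members are induced by nuclear factor κB (NF-κB) and interferon signalling.

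Among the ligands, the neutrophil chemoattractants Cxcl1, Cxcl2 and Cxcl3 lie within the same stretch of chromosome 5. Cxcl1 was called higher in perinatal stroma and Cxcl2 and Cxcl3 in perinatal HPs. The Cxcl2 call was lost with stage as a block, a fit that included the adult libraries, and the Cxcl3 call in 8 of 16 alternatives. Cxcl10, an interferon-inducible ligand, lies further along the same chromosome. For this reason the 120 bases before the RefSeq start of each are shown, from GRCm38.p6 and on the strand of the gene. Capitals mark matches, some of them overlapping, to the NF-κB consensus (the κB motif), searched on both strands. The positions are chr5:90891125-90891244 (plus strand) for Cxcl1, chr5:90903779-90903898 (plus strand) for Cxcl2, chr5:90785981-90786100 (plus strand) for Cxcl3 and chr5:92348890-92349009 (minus strand) for Cxcl10.
Cxcl1: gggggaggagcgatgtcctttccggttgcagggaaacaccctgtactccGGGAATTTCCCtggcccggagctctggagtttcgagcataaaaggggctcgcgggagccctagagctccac
Cxcl2: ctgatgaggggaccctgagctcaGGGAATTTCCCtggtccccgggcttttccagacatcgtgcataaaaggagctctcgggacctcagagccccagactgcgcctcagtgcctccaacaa
Cxcl3: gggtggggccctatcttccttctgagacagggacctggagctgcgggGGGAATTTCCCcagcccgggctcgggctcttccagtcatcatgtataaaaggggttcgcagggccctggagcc
Cxcl10: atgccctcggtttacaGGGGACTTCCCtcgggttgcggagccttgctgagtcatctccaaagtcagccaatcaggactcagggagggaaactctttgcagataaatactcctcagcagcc
The capitalised matches began 71 bases before the start in Cxcl1, 97 in Cxcl2, 73 in Cxcl3 and 104 in Cxcl10, and Cxcl10 held another match further upstream. In the 250 bases before the start, 7.25% of all 32851 RefSeq promoters and 9 of the 31 chemokine genes with a promoter entry held a κB match (Ccl1, Ccl9, Cxcl1, Cxcl2, Cxcl3, Cxcl10, Ccr1, Ccr3 and Ccr6). The interferon-stimulated response element core GAAANNGAAA, where N is any base, searched on both strands, was found in 2.98% of all promoters and in Ccl19, Cxcl10 and Cxcl14. A match is a description of the letters and not of binding.

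**Figure D1:**
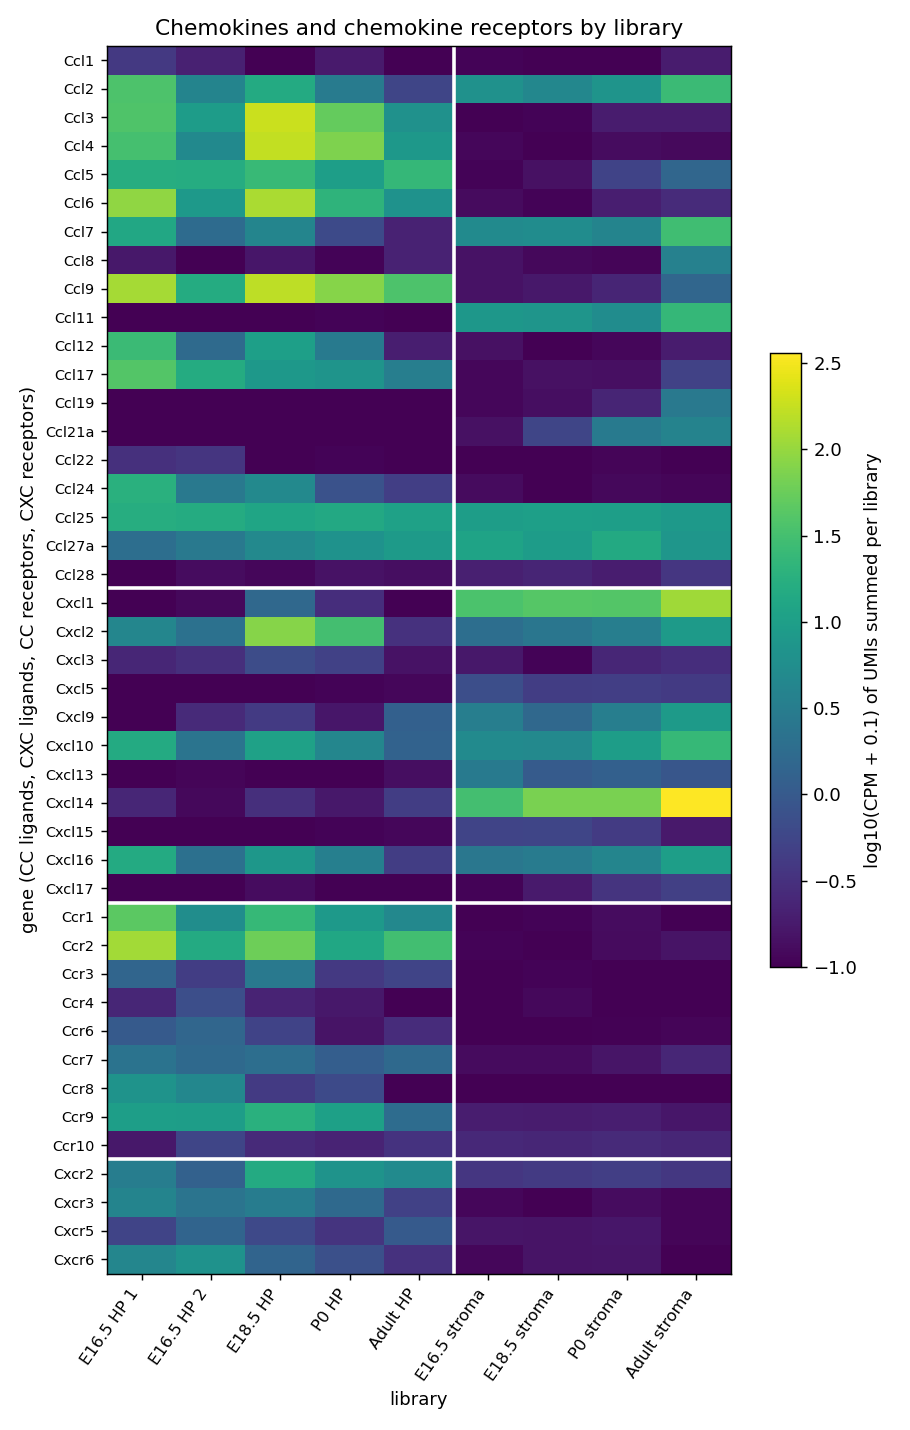
Level of the chemokine and receptor genes (rows, grouped as CC ligands, CXC ligands, CC receptors and CXC receptors) in the 9 libraries (columns, HPs on the left and stroma on the right), as log10 of CPM plus 0.1. Receptors are near the bottom of the scale in stroma, where they sum to at most 1.01 CPM, and the ligands divide between the compartments.

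Perinatal HPs and stroma were compared first, with the 4 HP and 3 stromal libraries of E16.5, E18.5 and P0. Of the 44 genes, 25 were higher in HPs and 12 were higher in stroma by edgeR's quasi-likelihood test (Benjamini-Hochberg adjusted p under 0.05), against a background of 30.0% and 37.3% of all tested genes (67.3% in either direction). Receptors were higher in HPs in 13 of 14 cases, the exception being Ccr10, and their median log2 difference was 6.63. Of the CC ligands 10 were higher in HPs and 5 in stroma, and of the CXC ligands 2 were higher in HPs and 7 in stroma. The median log2 difference was 0.30 over the 30 ligands and -0.15 over all tested genes. In 34 of the 44 genes the HP and stromal libraries did not overlap, which was also the case in 64.8% of all tested genes. Under every alternative, among them leaving out either E16.5 HP library or the cells with shared barcodes, 33 to 37 genes were called.

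The inflammatory CC ligands Ccl3 and Ccl4 (macrophage inflammatory proteins 1α and 1β), attractants of monocytes and T cells, were found almost wholly in HPs. Ccl3 reached 38.3 and 9.14 CPM in the E16.5 HP libraries, 187 in E18.5 and 53.0 in P0 HPs, and 0, 0.00889 and 0.0872 CPM in E16.5, E18.5 and P0 stroma. Ccl4 was at 32.0, 4.80, 168 and 73.8 CPM in the same HP libraries and at no more than 0.0308 CPM in perinatal stroma. The groups did not overlap, and E18.5 HPs were highest for both genes. The log2 differences were 10.18 (SE 1.09, edgeR adjusted p = 9.89e-05) for Ccl3 and 11.06 (SE 1.04, adjusted p = 4.77e-05) for Ccl4, and they rest on a stromal side with few counts.

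Ccl6 and Ccl9, rodent CC ligands that bind Ccr1, had the same arrangement. Ccl9 was at 119.9, 15.2, 158 and 80.9 CPM in perinatal HPs in the same order and at 0.0513, 0.0711 and 0.133 CPM in perinatal stroma, and Ccl6 at 93.2, 8.46, 129 and 20.3 CPM against at most 0.0975 CPM. Both were higher in every HP library than in any stromal library, with log2 differences of 9.78 (SE 0.944, edgeR adjusted p = 5.61e-05) for Ccl9 and 10.02 (SE 1.37, adjusted p = 0.000368) for Ccl6. The monocyte attractant Ccl12, the eosinophil attractant Ccl24 and Ccl17, a ligand of Ccr4, were also higher in HPs, by 8.71, 8.04 and 8.49 on the log2 scale. Ccl5, a product of cytotoxic lymphocytes, was at 9.78 to 25.1 CPM in perinatal HPs and at 0.00855 to 0.426 CPM in perinatal stroma (log2 difference 6.41, SE 1.02, edgeR adjusted p = 0.000848). Ccl1, a ligand of Ccr8, had 25 UMIs in perinatal HPs and 1 in stroma, a ratio of 35.1 with a counting interval of 5.75 to 1441. Its libraries overlapped between the groups, and its call was lost in 3 of 16 alternatives, with an edgeR adjusted p of up to 0.956.

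Ccl2 and Ccl7, which recruit monocytes through Ccr2, were present in both compartments. Ccl2 was at 36.2, 3.89, 15.1 and 2.97 CPM in perinatal HPs and at 6.27, 4.38 and 6.78 CPM in perinatal stroma, and Ccl7 at 13.6, 1.68, 4.09 and 0.533 CPM against 5.03, 5.31 and 3.88 CPM. The ranges overlapped, and neither difference passed the test (log2 1.04, edgeR adjusted p = 0.243, and log2 -0.36, adjusted p = 0.687). The other genes that did not pass were Ccl8, Ccl22, Cxcl10, Cxcl16 and Ccr10. Cxcl10 was at 2.25 to 15.1 CPM in perinatal HPs and 4.62 to 9.34 CPM in perinatal stroma (adjusted p = 0.830), and Cxcl16, a membrane-bound ligand, at 1.94 to 15.0 and 2.51 to 4.01 CPM (0.207). Ccl8 was under 0.1 CPM in every perinatal library, Ccl22 at or under 0.250 CPM and Ccr10 at or under 0.449 CPM.

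The ligands of the stroma were led by Cxcl14, a homeostatic CXC ligand, and Cxcl1. Cxcl14 was at 31.3, 69.5 and 68.8 CPM in E16.5, E18.5 and P0 stroma and at 0.143, 0.0209, 0.200 and 0.0706 CPM in perinatal HPs. Cxcl1 was at 35.7, 41.7 and 40.5 CPM in perinatal stroma and at 0, 0.0209, 1.51 and 0.196 CPM in HPs. Neither gene overlapped between the compartments. Cxcl14 was 858-fold higher in stroma (log2 difference -9.75, SE 0.567, edgeR adjusted p = 3.94e-06) and Cxcl1 338-fold (-8.40, SE 0.731, adjusted p = 3.21e-05).

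Cxcl2 went the other way from Cxcl1, although both bind Cxcr2. It was at 4.22, 2.03, 81.2 and 31.0 CPM in perinatal HPs and at 1.84, 2.37 and 3.20 CPM in perinatal stroma (log2 difference 2.25, SE 0.407, edgeR adjusted p = 0.00165). E16.5 HP library 2 lay within the stromal range. With stage as a block the edgeR difference did not pass (adjusted p = 0.459). That fit also took in the adult libraries, so it is not a contrast of perinatal libraries alone. Adult Cxcl2 was at 0.220 CPM in HPs and 8.72 CPM in stroma. Cxcl3 was low on both sides, at 0.143 to 0.571 CPM in HPs and 0.00889 to 0.139 CPM in stroma (log2 difference 1.82, SE 0.700, edgeR adjusted p = 0.0482), and its call was lost in 8 of 16 alternatives (adjusted p up to 0.283).

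The eosinophil attractant Ccl11 (eotaxin), Cxcl13, a B cell attractant, and Cxcl5, Cxcl15 and Cxcl17 were nearly absent from HPs. Ccl11 was at 7.59, 7.00 and 5.22 CPM in perinatal stroma and had 1 UMI in all perinatal HPs, which gives a ratio of 1916 with a counting interval of 344 to 75720. Cxcl13 was at 2.80, 0.942 and 1.12 CPM in perinatal stroma, with a ratio of 464 (83.0 to 18367). Cxcl5 and Cxcl15, neutrophil attractants, were at 0.338 to 0.616 and 0.313 to 0.462 CPM in perinatal stroma, with ratios of 127 (22.6 to 5063) and 118 (20.8 to 4669), and Cxcl17 at 0.00855 to 0.246 CPM with a ratio of 20.7 (5.47 to 175). Cxcl17 overlapped between the groups, its ratio was 6.59 without P0 stroma, and its call was lost in 5 of 16 alternatives (edgeR adjusted p up to 0.141). The mucosal ligand Ccl28 was low too, at 0.0924 to 0.133 CPM (log2 difference -1.89, SE 0.585, edgeR adjusted p = 0.0204). The Ccr7 ligands Ccl19 and Ccl21a, which guide lymphocytes and dendritic cells, had no UMI in HPs and were at least 7.60-fold and at least 141-fold higher in stroma. Without P0 stroma these bounds were 2.63 and 24.6, and 520 of the 594 perinatal Ccl21a UMIs came from 4 P0 endothelial cells. Ccl21a and Ccl27a have near-identical copies in the mouse genome, so their counts are uncertain. The interferon-inducible Cxcl9 was also higher in stroma, at 1.48 to 3.28 CPM against at most 0.308 CPM in perinatal HPs (log2 difference -4.27, SE 0.655, edgeR adjusted p = 0.000689).

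Ccl25, a ligand of Ccr9 in the thymus and gut, and Ccl27a, a skin chemokine that binds Ccr10, were detected in all 9 libraries. Ccl25 was at 16.7, 15.3, 12.3 and 14.0 CPM in perinatal HPs and at 9.52, 10.3 and 9.75 CPM in perinatal stroma. The libraries did not overlap, although the difference was small (log2 0.44, SE 0.163, edgeR adjusted p = 0.0406) and its call was lost in 7 of 16 alternatives (adjusted p up to 0.141). Ccl27a was at 1.86, 2.69, 4.69 and 6.39 CPM in perinatal HPs and at 11.6, 9.27 and 14.2 CPM in perinatal stroma (log2 -1.81, SE 0.270, adjusted p = 0.000597).

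Among the receptors, Ccr2 and Ccr1, found on monocytes and granulocytes, had the most UMIs over all libraries, although Ccr9 exceeded Ccr1 in E16.5 HP library 2 and in P0 HPs. Ccr2 was at 117, 14.8, 58.8 and 13.0 CPM in perinatal HPs and at no more than 0.0544 CPM in stroma, and Ccr1 at 45.4, 5.52, 24.5 and 8.32 CPM against no more than 0.0308 CPM. Their log2 differences were 11.49 (SE 1.28, edgeR adjusted p = 0.000122) and 10.05 (SE 1.16, adjusted p = 0.000151). Both were highest in E16.5 HP library 1, and every HP library was above every stromal library.

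Ccr9, the receptor of lymphoid progenitors that enter the thymus, varied least of the receptors between perinatal HP libraries, at 9.95, 9.59, 18.1 and 10.5 CPM, against 0.0889 to 0.0975 CPM in perinatal stroma. Its log2 difference of 6.83 had the smallest standard error among the receptors with both sides above 3 UMIs (0.326, edgeR adjusted p = 1.51e-06). The neutrophil receptor Cxcr2 was at 3.15, 1.17, 15.0 and 6.57 CPM in perinatal HPs and at 0.265, 0.302 and 0.364 CPM in stroma, a 13.6-fold difference (log2 3.77, SE 0.463, adjusted p = 0.000211). Thus the receptor of Cxcl1 and the bulk of Cxcl1 itself were in different compartments.

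The lymphocyte receptors were lower in abundance and also on the HP side. Cxcr3, the receptor of Cxcl9 and Cxcl10, was at 1.53 to 3.94 CPM in perinatal HPs and Cxcr6, the receptor of Cxcl16, at 0.635 to 6.37 CPM, with log2 differences of 6.95 and 5.47. Ccr7 was at 1.05 to 2.15 CPM and Cxcr5, the receptor of Cxcl13, at 0.243 to 1.32 CPM. Ccr8 had no UMI in any stromal library and 602 UMIs in perinatal HPs, and was at least 282-fold higher in HPs (at least 125-fold without E16.5 HP library 2 and 432-fold without P0). Ccr3, Ccr4 and Ccr6 had 3 or fewer UMIs in perinatal stroma, with ratios of 365, 54.1 and 253 whose lower counting limits were 65.0, 14.5 and 44.8. The Ccr3 ratio was 159 without E18.5 HPs, and without E16.5 HP library 2 the ratios of Ccr4 and Ccr6 were 19.5 and 96.7, against 82.6 and 420.3 without P0 HPs.

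**Figure D2:**
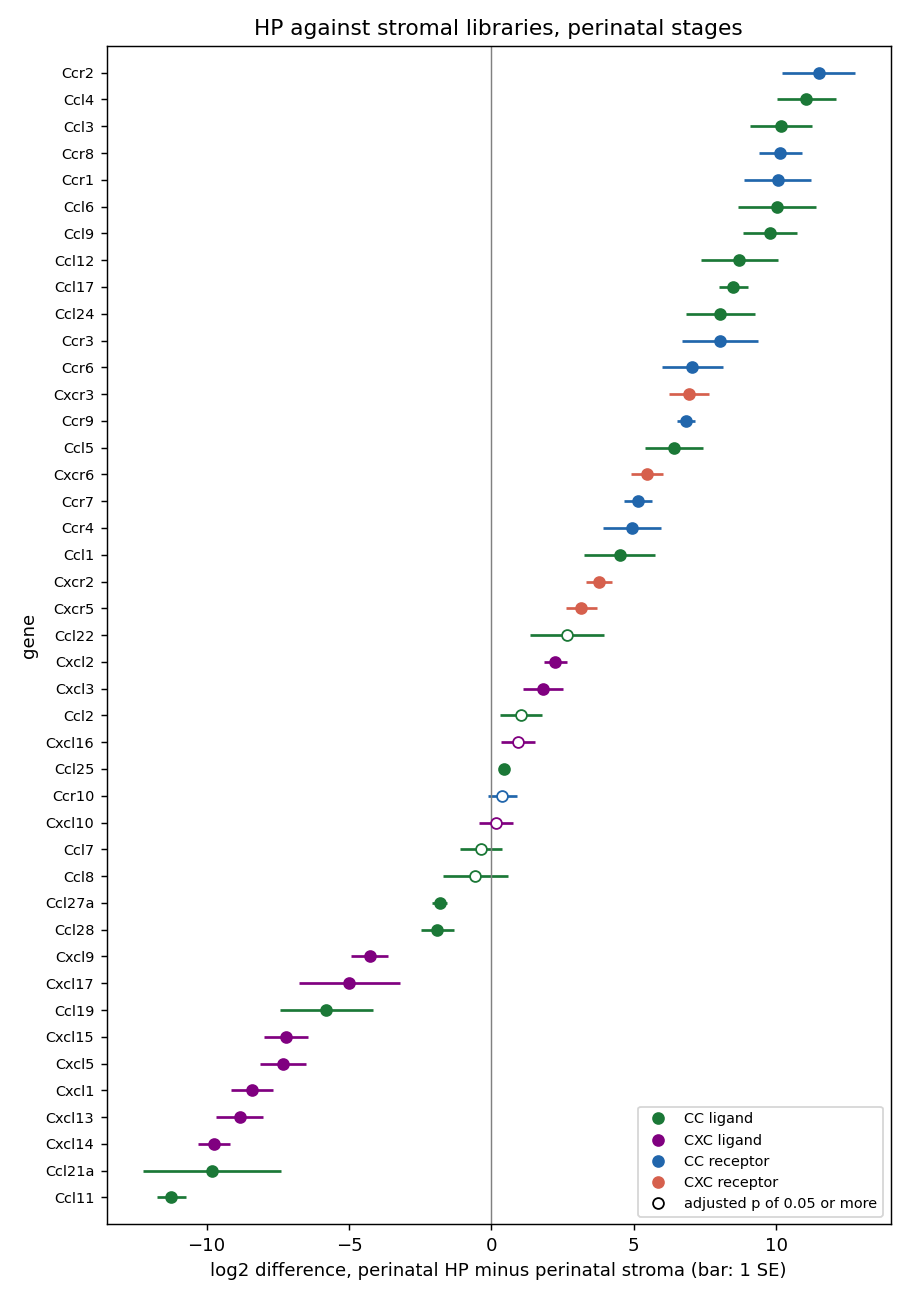
Log2 difference of the chemokine and receptor genes between perinatal HPs (4 libraries) and perinatal stroma (3 libraries), sorted, with bars of 1 SE and colours by role; open points did not pass the edgeR test at an adjusted p of 0.05. The receptors drawn passed the test as higher in HPs (right) except Ccr10, 12 ligands passed as higher in stroma (left), and the values of Ccr8, Ccl19 and Ccl21a, which had no UMI on one side, depend on the prior count.

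Neighbouring genes shared a direction in some parts of the genome and not in others. On chromosome 11 the 5 genes from Ccl5 to Ccl4 (83525778 to 83664683, GRCm38: Ccl5, Ccl9, Ccl6, Ccl3 and Ccl4) were all higher in HPs. In the stretch from Ccl2 to Ccl1 on the same chromosome (82035577 to 82179812), Ccl12 and Ccl1 were higher in HPs, Ccl11 was higher in stroma, and Ccl2, Ccl7 and Ccl8 did not pass. On chromosome 5, in the stretch from Cxcl5 to Cxcl2 (90759298 to 90905938), Cxcl2 and Cxcl3 were higher in HPs and Cxcl1, Cxcl5 and Cxcl15 in stroma.

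Levels within the authors' clusters were then described. The clusters were made from these same cells and genes, and several chemokine genes are among the leading genes of their cluster (Ccl3 in Bas1, Ccr9 in LymP, Ccl5 in TCell5, Ccr6 in UD1, Ccl11 in F8), so cluster levels are given without a test. Cluster codes are numbered within a stage and are those of the authors. The highest level was in an HP cluster for 29 genes (15 ligands and all 14 receptors) and in a stromal cluster for 15 ligands. It was at or over 500 CPM in 9 genes, from 50 to under 500 CPM in 20 and under 50 CPM in 15, and in 8 genes it rested on 10 UMIs or fewer.

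Basophil and eosinophil clusters held most of the Ccl3 of the HPs. In E18.5 Bas1, whose leading genes include Csf1 and the basophil receptor Cd200r3, Ccl3 reached 4123 CPM (95% Poisson interval 4031 to 4216), with UMIs in 261 of 274 cells. In P0 Eos/Bas3 it was at 2197 CPM (2087 to 2312). Clusters of this kind made up 6.74% of all HPs and held 58.5% of Ccl3, 38.3% of Ccl4, 37.2% of Ccl9 and 34.7% of Ccl6 UMIs. Ccl9 was at 2808 CPM in Bas1 and at 1758 CPM in P0 Eos/Bas3, and Ccl4 at 2886 and 2576 CPM. The eosinophil and basophil receptor Ccr3 had its highest level in Bas1 too, at 63.9 CPM (52.9 to 76.4), as did Ccr2, at 645 CPM (609 to 683).

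Clusters coded Mono held most Ccl2, Ccl7, Ccl12 and Ccl24 of the HPs. Their leading genes differed: those of E16.5 Mono/Mast included the macrophage genes C1qa and Mrc1, those of E18.5 Mono1ii and adult Mono6 the dendritic cell gene H2-Aa, and those of adult Mono5 the plasmacytoid dendritic cell gene Siglech, so levels were compared between single clusters and not between stages. The clusters made up 9.84% of HPs and held 87.0% of Ccl2, 87.0% of Ccl7, 91.3% of Ccl12 and 86.3% of Ccl24 UMIs of the HPs. Mono2 of E18.5, with the macrophage genes P2ry12, Fcrls and Sall1 among its leading genes, had the highest Ccl4 (3134 CPM, 3005 to 3268) and Ccl12 (524 CPM), and the highest Ccl2 among HP clusters (336 CPM). Mono1iv, a cluster of 28 cells at E18.5 led by Fcna, Timd4, Lyve1 and Folr2, genes of tissue macrophages, had the highest Ccl6 (5663 CPM, 5458 to 5873), Cxcl2 (1235 CPM, 1141 to 1336) and Ccl24 (161 CPM). The Cxcl2 interval overlapped that of P0 Eos/Bas3 (1155 CPM, 1076 to 1239). By a mean over cells of the CPM of each cell, P0 Eos/Bas3 was highest for both Cxcl2 and Ccl4. Ccr2 was high in Mono1i of E18.5 (555 CPM), its highest cluster by a mean over cells, and in adult Mono6 (369 CPM). Its UMIs in HPs came to 46.9% from clusters coded Mono.

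The receptors Cxcr2 and Ccr1 reached high levels in neutrophil clusters, which held 17.5% of the Cxcr2 and 7.25% of the Ccr1 UMIs of HPs. Cxcr2 was at 486 CPM (421 to 559) in E18.5 Neu2, led by the granule genes Retnlg, Ltf and Mmp8, and at 423 CPM (301 to 578) in P0 Neu2. Ccr1 was at 319 and 325 CPM in the same clusters. Bas1 also held Cxcr2, at 216 CPM. Basophil and eosinophil clusters gave 33.0% of the Cxcr2 UMIs of HPs and myeloid progenitor (MyP) clusters 24.3%, and for Ccr1 clusters coded Mono gave 40.5% and basophil and eosinophil clusters 33.1%. Cxcl2 itself was at 1121 CPM in Bas1 but in 53 of its 274 cells (19.3%, median depth 6565.5 UMIs), against 1 of 152 cells of E18.5 Bcell1 (median 22806), and at 268 and 477 CPM in neutrophil clusters of E18.5 and P0.

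T cell and T/NK clusters held most Ccl5, Cxcr6 and Ccr4, and other receptors of low abundance were spread over further clusters. Ccl5 was at 2395 CPM (2261 to 2535) in the adult T/NK cluster, led by Gzma and Ncr1, and at 481, 1361 and 1266 CPM in TCell5 of E16.5, E18.5 and P0, led by Xcl1 and Klrd1. T cell and T/NK clusters held 87.0% of Ccl5, 72.6% of Cxcr6 and 77.9% of Ccr4 UMIs of the HPs. An unnamed E16.5 cluster of 79 cells, UD1, led by Lta and Ccr6, held 100 of the 193 Ccr6 UMIs of the series (124 CPM, 101 to 151) and had the highest Cxcr5 (34.9 CPM) and Ccr10 (19.9 CPM), while Cxcr6 was at 147 CPM there and at 155 CPM in TCell5. Ccr7 was highest in B cell clusters, at 37.1 CPM in P0 BCell2 and 36.0 CPM in adult Bcell3. The E16.5 dendritic cluster DC1, led by Clec9a and Irf8, had the highest Cxcl16 (129 CPM, 108 to 153) and Cxcr3 (93.5 CPM, 75.7 to 114).

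Clusters coded as stem and progenitor cells (HSPC) also contained chemokine transcripts. The code covers clusters of unlike leading genes: those of E16.5 HSPC1 included the dendritic cell genes Cd209a, Cd74 and H2-Aa beside the progenitor genes Flt3 and Hoxa9, and those of P0 HSPC4 the granule genes Prtn3, Mpo and Elane. Values are therefore given by cluster, with no comparison of the code between stages. Ccl4 was at 31.6 CPM in P0 HSPC4 to 122 CPM in E18.5 HSPC2, and at 300 CPM (286 to 314) in P0 lymphoid progenitors (LymP), against 4.76 CPM (3.77 to 5.94) in P0 megakaryocyte progenitors (MegP1). Ccl9 was at 23.7 to 94.6 CPM across the clusters coded HSPC and at 72.1 CPM in LymP. Ccr9 was at 73.3 CPM (65.2 to 82.1) in E16.5 HSPC1 and 95.5 CPM (89.5 to 102) in E18.5 HSPC2, of which it was a leading gene, at 3.58 to 7.29 CPM in the 3 P0 clusters coded HSPC and at 3.67 CPM in adult HSPC5. In P0 LymP it was at 147 CPM (137 to 156), with UMIs in 205 of 388 cells (52.8%, median depth 14392.5 UMIs) against 7 of 686 cells of MegP1 (1.02%, median 23062.5). P0 is the only stage at which the authors separated a LymP cluster, so stage and cluster boundaries cannot be told apart here.

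**Figure D3:**
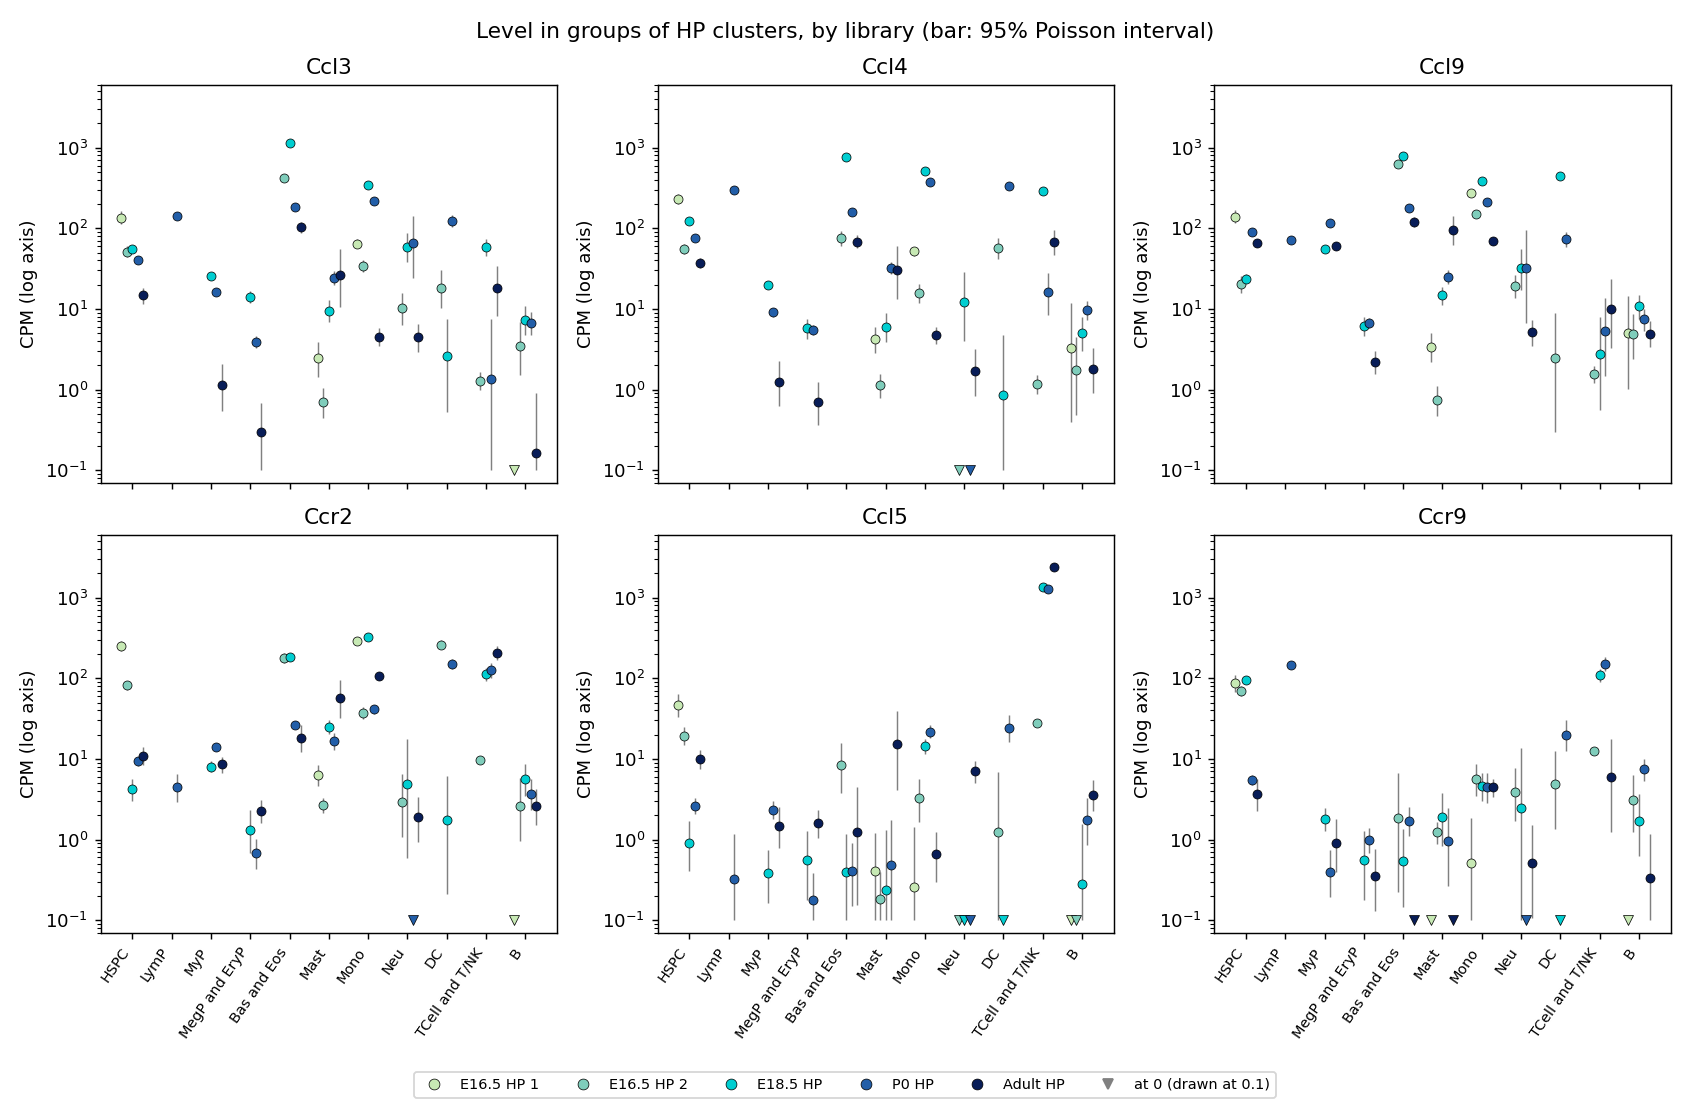
Levels (CPM, log axis) of Ccl3, Ccl4, Ccl9, Ccr2, Ccl5 and Ccr9 in groups of HP clusters by library, with 95% Poisson intervals; triangles at 0.1 are groups with no UMI, and groups under 20 cells in a library are not drawn. Ccl3 and Ccl9 peak in basophil and eosinophil clusters at E18.5, Ccl5 in T cell and T/NK clusters, and Ccr9 in T cell clusters, LymP and the clusters coded HSPC at E16.5 and E18.5. The HSPC and Mono codes cover clusters of unlike leading genes.

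In stroma, the ligands had their highest levels in a few clusters. Adult CAR cells (CXCL12-abundant reticular cells, 359 cells or 5.73% of adult stroma, with Adipoq among the leading genes) had Cxcl14 at 3505 CPM (3438 to 3572), with UMIs in 330 of 359 cells (median depth 7185 UMIs) against 16 of 400 cells of adult arterial endothelial cells (AECs, median 4520.5). The same cluster had the highest Cxcl10 (405 CPM, 383 to 429) and Cxcl9 (168 CPM, 154 to 183), followed for Cxcl9 by sinusoidal endothelial cells (SECs, 66.3 CPM). A minority of CAR cells held these UMIs, 18.4% for Cxcl10 and 17.5% for Cxcl9. Cxcl10 was also at 106 CPM in SECs and, at E18.5, at 107 CPM in the Schwann cluster. CAR cells were 1.02% of all stromal cells and held 18.1% of Cxcl14, 23.6% of Cxcl10 and 25.5% of Cxcl9 UMIs of the stroma.

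The adult fibroblast cluster F8 (1125 cells, led by Ccl11, Pi16, Cd248, C3 and Dpt, genes of adventitial fibroblasts) held monocyte and eosinophil attractants. It contained 2057 of the 2177 Ccl11 UMIs of adult stroma (141 CPM, 135 to 148) and 321 of 330 UMIs of Ccl8, a further monocyte attractant (22.1 CPM, 19.7 to 24.6). Ccl7 was at 149.7 CPM and Ccl2 at 110.1 CPM in F8, and Ccl2 was at 115 CPM in CAR cells. Cxcl1 was at 436 CPM (425 to 446) in F8 and at 464 CPM (418 to 515) in adult P1, a cluster led by the muscle progenitor genes Pax7, Myf5 and Myod1, intervals that overlap.

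Perinatal stroma had other leading clusters. Clusters led by the pericyte and smooth muscle genes Rgs5 and Myh11 held several of the same ligands: Ccl11 was at 212 CPM (198 to 227) in E16.5 F4 and 322 CPM (297 to 349) in E18.5 P2, Ccl2 at 161 and 156 CPM, and Cxcl1 at 342 and 322 CPM. Cxcl13 was at 57.1 CPM in E16.5 F4 and 46.3 CPM in E18.5 P2, although its UMIs there came from 12 of 290 and 2 of 124 cells. Cxcl14 was highest in small clusters led by the limb and skin patterning genes Hoxc13 and Twist2, at 985 CPM (944 to 1026) in E16.5 F6 and 896 CPM (861 to 933) in E18.5 F3ii. At P0 the highest Cxcl14 was at 125 CPM (120.4 to 129) in C1, a cluster of the chondrocyte markers, and F3ii was at 58.3 CPM. Ccl21a came to 97.0% from endothelial clusters and from very few cells: 520 UMIs in 4 of 223 P0 ECs and 348 UMIs in 5 of 400 adult AECs.

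**Figure D4:**
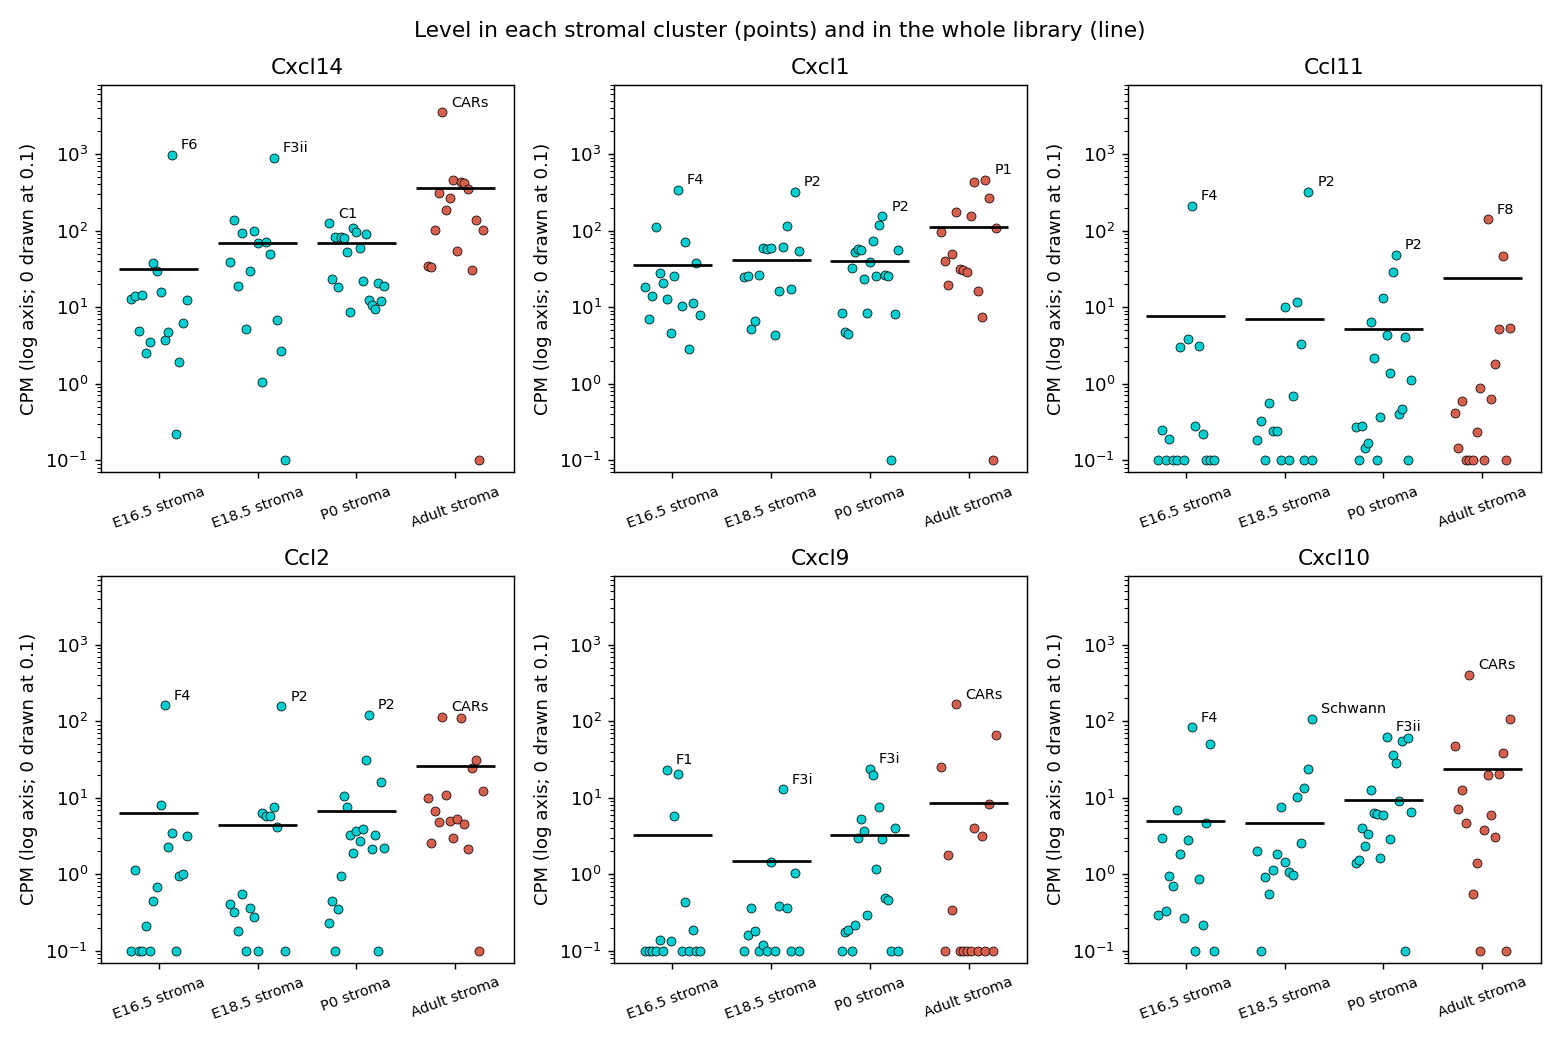
Levels (CPM, log axis, 0 drawn at 0.1) of Cxcl14, Cxcl1, Ccl11, Ccl2, Cxcl9 and Cxcl10 in each stromal cluster (points) and in the whole library (line) by stage, with the highest cluster named. In the adult, CAR cells are highest for Cxcl14, Cxcl9 and Cxcl10 and cluster F8 for Ccl11.

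Adult stroma was next compared with the 3 perinatal stromal libraries. By edgeR's quasi-likelihood test 6 genes were higher in the adult (Ccl8, Ccl9, Ccl11, Ccl17, Ccl19 and Cxcl14), all of them ligands, and 0 were lower, against a background of 8.11% higher and 4.33% lower (12.4% in either direction). At an unadjusted p under 0.05 there were 13 genes, against 29.8% of all tested genes, and DESeq2 called 7 of 42 with an adjusted p, all higher, against 18.1% of all genes. The median log2 difference was 1.59 over the ligands, 1.30 over the 44 genes and -0.01 over all genes. The adult side is a single library, whose spread is assumed to be like that of the others. The count fell to 1 without E18.5 stroma, to 3 without E16.5 stroma and to 5 without P0 stroma, and was 11 without E16.5 HP library 1 and 11 without library 2. Ccl8 alone was called under every alternative.

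Cxcl14 was at 31.3, 69.5 and 68.8 CPM in perinatal stroma and at 363 CPM in adult stroma, a 5.86-fold rise (log2 2.55, SE 0.507, edgeR adjusted p = 0.0207). Without E18.5 stroma its adjusted p was 0.0675. Ccl11 was at 7.59, 7.00 and 5.22 CPM and at 23.7 CPM in the adult (3.31-fold, log2 1.73, SE 0.358, adjusted p = 0.0283). Both genes were above every perinatal library in the adult. The Ccl11 of the adult was almost all in F8 and the Cxcl14 was spread, with 10516 of 33323 UMIs in CAR cells, 6177 in F8 and 5330 in F9.

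Ccl8 was at 0.0513, 0.0178 and 0.0103 CPM in perinatal stroma (10 UMIs) and 3.59 CPM in the adult (330 UMIs), the largest difference among the 44 genes (log2 6.99, SE 0.932, edgeR adjusted p = 0.00638). Ccl19, a ligand of Ccr7, was at 0.0171, 0.0356 and 0.133 CPM and at 2.61 CPM in the adult (log2 5.12, SE 0.908, adjusted p = 0.0238), with 120 UMIs in F8 and 71 in CAR cells. Ccl9 rose from at most 0.133 CPM to 1.40 CPM (log2 3.81, SE 0.960, adjusted p = 0.0413) and Ccl17 from at most 0.0445 CPM to 0.403 CPM (log2 3.35, SE 0.607, adjusted p = 0.0159). CAR cells held 96 of 129 Ccl9 UMIs and 16 of 37 Ccl17 UMIs. These 4 genes were thus scarce in perinatal stroma, and adult levels ranged up to 3.59 CPM.

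Other ligands were higher in the adult library without passing the adjusted test. Cxcl1 was at 35.7 to 41.7 CPM in perinatal stroma and 112 CPM in the adult (edgeR adjusted p = 0.217), Ccl7 at 3.88 to 5.31 and 29.2 CPM (0.145), Ccl2 at 4.38 to 6.78 and 26.3 CPM (0.210), Cxcl10 at 4.62 to 9.34 and 24.1 CPM (0.195) and Cxcl9 at 1.48 to 3.28 and 8.62 CPM (0.221). Receptors did not pass in either direction, and their summed level was 0.744, 0.845, 1.01 and 0.751 CPM in E16.5, E18.5, P0 and adult stroma. In the same libraries the summed level of 5 CAR cell markers was 93.0 to 104.2 CPM perinatally and 1094 CPM in the adult, of 6 fibroblast markers 2851 to 4801 and 16341 CPM, and of 5 endothelial markers 22.1 to 42.1 and 193 CPM. Markers of macrophages (10 genes) summed to 14.6 to 23.4 CPM in perinatal stroma and 110.4 CPM in the adult, with 0 to 3 of the 10 at 0 in each library, while 4 pan-leukocyte markers summed to 1.61 to 2.08 CPM at all stages. These changes in makeup move with the ligands above, and their part in the result was not tested.

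Adult HPs were compared with the 4 perinatal HP libraries. Of the 44 genes, 3 were lower in the adult (Cxcl2, Ccr8 and Ccr9) and 0 were higher by edgeR's quasi-likelihood test, against a background of 2.25% lower and 4.05% higher (6.30% in either direction). At an unadjusted p under 0.05 there were 17 genes, against 22.7% of all tested genes, and DESeq2 called 15 of 39 with an adjusted p, of which 3 were higher, against 12.9% of all genes. The median log2 difference was -1.73 over the 44 genes and -0.01 over all genes, and the adult library did not overlap the perinatal libraries in 26 genes and in 51.4% of all tested genes. The 3 calls held under every alternative, and the count rose to 9 without E16.5 HP library 1 and to 12 without library 2.

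Cxcl2 was at 4.22, 2.03, 81.2 and 31.0 CPM in perinatal HPs and at 0.220 CPM in adult HPs, 51.3-fold lower (log2 difference -5.68, SE 0.858, edgeR adjusted p = 0.0106). It was lower in the adult than in each perinatal library. By cluster, Cxcl2 was at 0.35 CPM in adult Mono4, at 0.52 CPM in adult Neu3 and without a UMI in adult Eos/Bas4, against 268 and 477 CPM in Neu2 of E18.5 and P0. In E16.5 libraries 1 and 2 Cxcl2 was at 8.28 and 24.6 CPM in Mono/Mast. Over all cells outside the T cell and Mono/Mast clusters it was at 2.78 and 1.84 CPM. The latter cells are a mix of types and not a match for the neutrophil clusters. Over whole libraries, 10 macrophage markers summed to 2484, 262, 962 and 266 CPM in perinatal HPs in the same order and 41.2 CPM in adult HPs. Basophil and eosinophil clusters took 3.21%, 1.66%, 12.4% and 11.4% of perinatal and 2.94% of adult HPs. The 5 basophil markers summed to 340 to 949 CPM perinatally and 431 CPM in the adult, and 6 eosinophil markers to 16.9 to 361 and 196 CPM. The part of these cells in the result was not tested. Ccr9 was at 9.95, 9.59, 18.1 and 10.5 CPM in perinatal HPs and at 1.74 CPM in the adult, 5.98-fold lower (log2 difference -2.58, SE 0.411, adjusted p = 0.0132). Clusters coded HSPC held 39.3%, T cell and T/NK clusters 24.8% and LymP 24.3% of the Ccr9 UMIs of HPs. The 8 T cell markers summed to 70.1, 3860, 103 and 68.3 CPM in perinatal HPs in the same order and 25.7 CPM in adult HPs. Adult sums lay within the perinatal range for 8 HSPC markers (131 to 283 and 152 CPM) and 7 markers of NK or innate lymphoid cells (182 to 1239 and 356 CPM). The part of these cells in the result was not tested. Ccr8 had 602 UMIs in perinatal HPs and none in the adult, which puts it at least 39.3-fold lower (edgeR adjusted p = 0.0183). The bound was 17.4-fold without E16.5 HP library 2 and 60.3-fold without P0. Of the perinatal UMIs, 514 came from both E16.5 libraries together (6.73 and 4.38 CPM). Levels at E18.5 and P0 were lower, so the bound mainly describes E16.5.

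Several ligands of myeloid cells had lower adult values that did not pass the adjusted test. Ccl3 was at 9.14 to 187 CPM in perinatal and 6.16 CPM in adult HPs, Ccl4 at 4.80 to 168 and 7.85 CPM, Ccl6 at 8.46 to 129 and 6.42 CPM, and Ccl9 at 15.2 to 158 and 36.7 CPM. Ccl4 and Ccl9 of the adult lay within the perinatal range. Ccl5 was at 9.78 to 25.1 and 23.1 CPM, also within it, as was Ccr2 at 13.0 to 117 and 30.6 CPM. Ccl27a was higher in the adult than in each perinatal library, at 8.72 against 1.86 to 6.39 CPM, with an edgeR adjusted p of 0.059.

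Within the perinatal HPs, the 2 E16.5 libraries were compared with those of E18.5 and P0. At E16.5, 4 genes were higher (Ccl17, Ccl22, Ccr8 and Cxcr6) and 1 was lower (Cxcl2) by edgeR's quasi-likelihood test, against a background of 3.04% higher and 2.16% lower (5.20% in either direction). The median log2 difference was 0.09 over the 44 genes and -0.01 over all genes. The count was 3 without E16.5 HP library 2 or E16.5 stroma, and 2 without any 1 of E18.5 HPs, P0 HPs, E18.5 stroma and P0 stroma. Cxcl2 alone was called under every alternative.

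Cxcl2 was at 4.22 and 2.03 CPM at E16.5, and at 81.2 CPM at E18.5 and 31.0 CPM at P0 (log2 difference -4.19, SE 0.563, edgeR adjusted p = 0.00785). Its neighbour Cxcl1 was also lower in both E16.5 libraries, at 0 and 0.0209 CPM against 1.51 and 0.196 CPM (adjusted p = 0.065), and its receptor Cxcr2 was at 3.15 and 1.17 CPM against 15.0 and 6.57 CPM (adjusted p = 0.051). Neither of these passed the test. Basophil and eosinophil clusters held 47.5% and clusters coded Mono 30.2% of the Cxcl2 UMIs of HPs. The former took 3.21% and 1.66% of the cells of the E16.5 libraries and 12.4% and 11.4% of E18.5 and P0 HPs, 6 eosinophil markers summed to 21.8 and 16.9 CPM and to 361 and 353 CPM in the same order, and 5 basophil markers, in the other direction, to 949 and 584 CPM and to 479 and 340 CPM. In the same order 10 neutrophil markers summed to 840 and 1602 CPM and to 5937 and 6318 CPM, while neutrophil clusters took 0.357% and 1.52% and then 2.04% and 0.451% of cells. The part of these cells in the result was not tested.

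Ccr8 was at 6.73 and 4.38 CPM at E16.5 and at 0.308 and 0.533 CPM at E18.5 and P0 (log2 difference 3.70, SE 0.524, edgeR adjusted p = 0.0196), a call that was lost without E18.5 or P0 HPs. Cxcr6 was at 4.15 and 6.37 CPM against 1.30 and 0.635 CPM (log2 2.53, SE 0.566, edgeR adjusted p = 0.0465), a call lost in 5 of 15 alternatives. Ccl17 was at 41.0 and 15.4 CPM against 7.83 and 6.92 CPM (log2 1.93, SE 0.445, adjusted p = 0.04996), and it was lost in 8 alternatives. In each of the 3 genes both E16.5 libraries were above both later ones. Ccl22 had 27 UMIs against 1 (ratio 47.3, 7.80 to 1936), and 24 of its 30 UMIs in the series came from 1 cell of cluster TCell3. Its call was lost in 6 of 14 alternatives.

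Mast clusters held most of the Ccr8 UMIs of HPs and, at E16.5, most of the Ccl17 UMIs. Mast clusters made up 46.25% and 38.0% of the E16.5 HP libraries and 4.66%, 8.60% and 5.36% of E18.5, P0 and adult HPs. Of these Mast cells, 39.0% at P0 and 81.3% in the adult shared a barcode with a deeper cell. Without such cells, Mast clusters held 161 of 3389 cells at E18.5, 326 of 5989 at P0 and 60 of 5341 in the adult. Over all HPs they held 87.5% of Ccr8 and 60.0% of Ccl17 UMIs. For Ccl17 this was 458 of 573 and 1346 of 1472 UMIs at E16.5. The Mast counts of Ccl17 were 189 UMIs at E18.5 and 170 at P0, of 1390 in these libraries together, and 13 of 192 in the adult. Megakaryocyte and erythroid progenitor clusters (MegP and EryP) held 837 of the 3627 Ccl17 UMIs of HPs (23.1%). No E16.5 cluster carried these codes. The level of Ccl17 within Mast clusters was 62.2 and 41.2 CPM at E16.5, 45.0 CPM at E18.5 and 41.4 CPM at P0. The whole perinatal HP libraries ranged from 6.92 to 41.0 CPM. Of the later Mast clusters, P0 Mast4 (274 cells) was led by the collagen genes Col3a1, Col2a1 and Col1a1 beside Tpsb2 and Cma1, and adult Mast4ii (120 of the 321 adult Mast cells) by the macrophage genes C1qb, C1qc, C1qa and Mrc1. P0 Mast3, led by mast cell genes, had Ccl17 at 41.8 CPM, and adult Mast4i at 66.7 CPM (32.0 to 123). In adult Mast clusters it was 49.4 CPM, from 13 UMIs, and 27.2 CPM from 2 UMIs without the cells that shared a barcode with a deeper cell, which were 81.3% of the adult Mast cells. Ccr8 within Mast clusters was at 11.5 and 11.4 CPM at E16.5, 4.28 CPM at E18.5 and 12.9 CPM at P0. Adult Mast clusters held no Ccr8 UMI. The upper limit of the Poisson interval was 14.0 CPM there, or 50.2 CPM without the cells that shared a barcode. Both limits lie above the Mast levels of E16.5, E18.5 and P0, so a lower adult level within Mast clusters was not shown. Over whole libraries, 10 mast cell markers summed to 36848 and 26651 CPM at E16.5 and to 1732, 1478 and 422 CPM at E18.5, P0 and in the adult. The part of the mast cell share in the differences of Ccr8 and Ccl17 was not tested. That of MegP and EryP clusters in Ccl17 was not tested. Of the 614 Cxcr6 UMIs in T cell and T/NK clusters, 458 came from TCell5 of E16.5, led by Xcl1 and Klrd1. TCell5 took 2.32% and 3.91% of the E16.5 libraries and 1.87% and 1.10% of E18.5 and P0 HPs, and its part was not tested either.

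**Figure D5:**
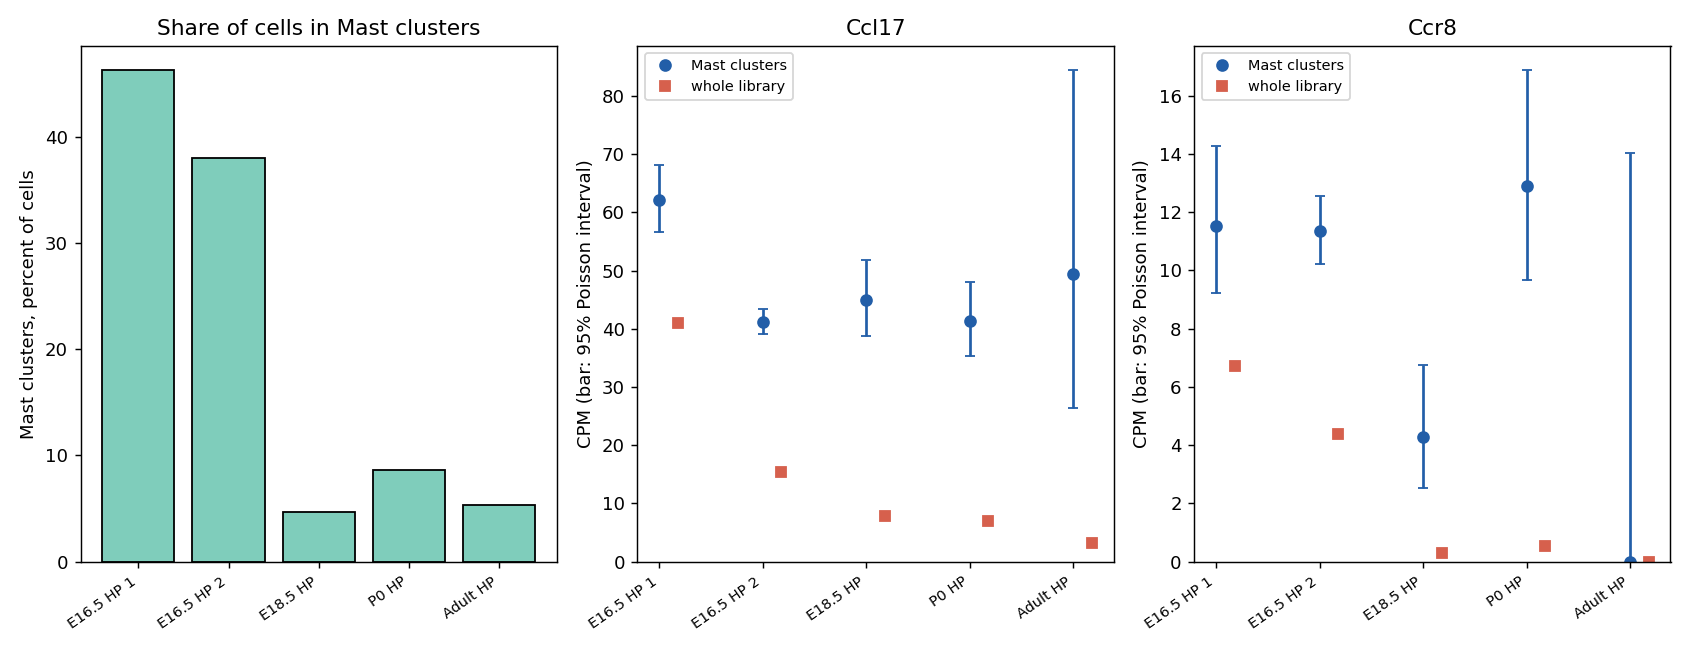
Share of cells in Mast clusters in each HP library (bars, percent), and levels (CPM) of Ccl17 and Ccr8 in Mast clusters (points with 95% Poisson intervals) and in the whole library (squares). The share falls from 46.25% and 38.0% at E16.5 to 4.66% at E18.5. Ccl17 within Mast clusters is between 41.2 and 62.2 CPM. The P0 and adult Mast codes include a cluster led by collagen or macrophage genes. Shares are of all cells, and 39.0% of P0 and 81.3% of adult Mast cells shared a barcode with a deeper cell.

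The change from the perinatal stages to the adult was compared between stroma and HPs with an interaction term. It differed for 2 genes, Cxcl2 and Ccl17, both with the larger value in stroma, and for 0 in the other direction, against a background of 3.84% and 3.83% (7.67% in either direction). At an unadjusted p under 0.05 there were 13 genes, against 26.8% of all tested genes, and DESeq2 called 11 of 39 with an adjusted p, of which 10 had the larger value in stroma, against 17.1% of all genes. The median was 2.56 over the 44 genes and 0.04 over all genes. Cxcl2 was at 1.84, 2.37 and 3.20 CPM in perinatal and 8.72 CPM in adult stroma, and 51.3-fold lower in adult HPs (difference of log2 changes 7.37, SE 1.00, edgeR adjusted p = 0.0154). Ccl17 was higher in adult stroma and at 3.24 CPM in adult HPs, below the 6.92 to 41.0 CPM of the perinatal HPs (difference 5.30, SE 0.848, adjusted p = 0.0194). Without E18.5 stroma neither passed (adjusted p = 0.0503 and 0.0559), and without E16.5 HP library 1 or library 2 the count was 9.

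The other genes of the pathway were examined as lists. Of 16 ligands and receptors outside the rule, 7 were higher in perinatal HPs, among them the fractalkine receptor Cx3cr1 (log2 11.30), Xcl1 (9.17), the platelet chemokine Pf4 (7.73) and Cxcr4 (4.21), and 7 were higher in stroma, among them the scavenging receptors Ackr1 to Ackr4, Rarres2 (-8.69) and Cxcl12 (-8.29), beside 30.0% and 37.3% of all tested genes. In adult stroma 7 of the 16 were higher than perinatally, among them Cxcl12 (log2 4.07, edgeR adjusted p = 0.000614), Ackr1 (5.16) and Ackr3 (2.68), beside 8.11% of all genes, and 0 were lower. In adult HPs 2 were higher (Ackr1, 5.22, and Cxcl12, 4.14), beside 4.05% of all genes, and none passed between E16.5 and the later HPs. The adult HP library held a cluster of 56 cells coded Stroma with Sparc, Col2a1 and Cxcl12 among its leading genes, a code absent from the perinatal HP libraries, and over the whole library 6 chondrocyte markers summed to 14.3 CPM against 0.574 to 2.09 CPM perinatally. In the same libraries 6 erythroid markers summed to 569 CPM in the adult against 13.2 to 168 CPM perinatally. The part of these cells in the Cxcl12 and Ackr1 differences was not tested. The 26 symbols listed for signalling from chemokine receptors include an older name each of Grk2 and Grk3, and all 24 genes were tested. Of these, 20 were higher in perinatal HPs (30.0% of all genes). Among them were Rac2 (12.73), Rgs18 (12.20) and Dock2 (10.44), which act in cytoskeletal control and G protein signalling of blood cells. Rgs16 was the single one higher in stroma (-5.70). In adult stroma 7 of the 24 were higher than perinatally (8.11% of all genes).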

How the data were processed

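Per the labels, mRNA libraries were made from sorted Lineage-Kit+ and CD45-Ter119- BM cells, 9 in all. The authors deposited unnormalized UMI counts for each cell, and a table giving its library and cluster code, after removing cells of low UMI count or high mitochondrial share, the cells richest in genes or UMIs as putative doublets, and genes found in few cells. The study's methods also name a removal of contaminating blood cells. No doublet caller was run here. The submitters' processing notes name Cell Ranger 3.1.0, R 4.0, Seurat 3.1.5 and mm10. Antibody counts were not used, and 0 columns of per-sample values were left out.

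Counts were summed per library and compared in edgeR 4.0.16 (R 4.3.3) with the default filter, TMM, 5 groups over 9 libraries and the quasi-likelihood test, Benjamini-Hochberg adjusted over 19323 genes with a threshold of 0.05, and tested on simulated data. Of simulated 4-fold changes, 100% were found between HPs and stroma, 43% in adult stroma, 56.5% in adult HPs and 77% between HP stages. The changes were placed only in genes above a minimum mean level, and all genes were drawn with the same dispersion. These rates therefore do not apply to scarcer or more variable genes, which many of the 44 are. Cluster levels used clusters of at least 20 cells and exact 95% Poisson intervals. All 44 genes could be named by rule, and all are counted, though 1 is not reported by name or drawn here. Alternatives used DESeq2 1.42.0, other scalings, filters, cells and libraries. Python 3.11.15, numpy 2.4.6, scipy 1.17.1, pandas 2.3.3 and matplotlib 3.10.9 did the rest. Promoters came from RefSeq (GRCm38.p6), with 35 entries for 31 of the 44 genes. The genes and lists were chosen with earlier results of these data known.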

Additional observations from a re-analysis of the deposited data

Results flagged for a closer look

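The adult-to-perinatal change differed between the compartments for 2 genes by the test of the difference itself (edgeR interaction term), 4.55% of the 44 genes against 7.67% of all tested genes, and neither passed without E18.5 stroma (adjusted p = 0.0503 and 0.0559). For Cxcl2 the log2 change in stroma exceeded that in HPs by 7.37, with a level of 8.72 CPM in adult stroma and 0.220 CPM in adult HPs. For Ccl17 it did so by 5.30, with 0.403 CPM in adult stroma and 3.24 CPM in adult HPs. No group had 4 or more libraries of the same stage and compartment, so single libraries were not screened for values far from their group.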

How the results depend on the processing

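HPs and stroma share stages, and a matched fit with stage as a block called 33 genes between them. This fit included the adult libraries, unlike the perinatal contrast it is set beside. By replicate number, no paired analysis was possible because only the E16.5 HP libraries carry such numbers. Of the comparisons, HPs against stroma was the steadiest, with 33 to 37 calls under each alternative, against 37 as reported. Ccl25 and Cxcl3 lost significance in 7 and 8 of the 16 alternatives, Cxcl17 in 5, Ccl1 and Ccl28 in 3 each, Ccl19 in 1, and Cxcl2 only with stage as a block. DESeq2 moved 3 counts of called chemokine genes: from 3 to 15 in adult HPs, from 5 to 8 between E16.5 and later HPs, and from 2 to 11 for the difference of changes (7 against 6 in adult stroma). Leaving out each library in turn gave 1 to 11 calls in adult stroma, 3 to 12 in adult HPs, 2 to 7 between HP stages and 0 to 9 for the difference of changes. Over all genes, DESeq2 called 2211 against 1217 in adult HPs, 2216 against 1004 between HP stages and 2988 against 1482 for the difference of changes. Without TMM, 53.7% rather than 64.3% of the called genes were higher in adult HPs (46.1% with DESeq2), 67.7% rather than 50.1% for the difference of changes (where the median of all genes moved from 0.04 to 0.34 on the log2 scale), and that median moved from -0.01 to -0.18 in adult HPs. Leaving out the shallower cell of each shared barcode, an alternative chosen after seeing the data, gave 4 calls between HP stages, against 5 with all cells. No difference called in the main fit reversed under any alternative, and the cause of the lost calls was not tested. The cluster with the highest level held for 32 of 44 genes with a mean over cells, 42 with cells of at least 1000 UMIs and 43 without the cells sharing a barcode.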
